A study of Mus musculus with 3 samples.

Results

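The 9 genes described here encode subunits of the transcription factor NF-κB and proteins that restrain or tune it: Nfkbia, Nfkbiz, Tnfaip3, Nfkb1, Nfkb2, Rela, Relb, Bcl3 and Birc3. They are a set by place in the pathway, out of 32285 genes in the files. Levels came from single-cell RNA sequencing of mouse brain, as unique molecular identifiers (UMIs) summed over the cells of a class in a library and scaled to CPM, counts per 1000000 UMIs of the sum. The study asked how brain cells respond to a transient ischemic attack (TIA), modelled by a brief filament occlusion of the middle cerebral artery. By the labels all mice were WT and of strain C57BL6J; the study's methods give an age of 10 to 12 weeks for its animals, and a figure legend gives males for these libraries. The naive library held cells of 3 pooled mice, naive by the labels and by 1 figure legend of the study, where another legend names the comparison group Sham; they are taken as naive here. The 24 h library pooled the ipsilateral hemispheres of 3 mice, 24 h after a 5 min occlusion, and the 3 d library those of 3 mice, 3 d after the same occlusion. White matter and meninges had been removed, and live cells were sorted. With 1 library per condition there were no replicates, so library and condition cannot be told apart, nor, against naive mice, can occlusion, anesthesia and surgery.

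NF-κB dimers are held in the cytoplasm by IκB proteins until receptors for cytokines or microbial products activate the IκB kinase complex, which marks IκB for degradation and frees the dimers to enter the nucleus. Several of the genes they switch on encode their own brakes, among them IκBα and the ubiquitin-editing enzyme A20, so the pathway raises transcripts of the proteins that restrain it. In microglia, the resident macrophages of the brain, the pathway is known for driving chemokine and cytokine genes.

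The naive, 24 h and 3 d libraries held 4804, 1619 and 5505 cells with 37987228, 12919691 and 48636436 UMIs. Cells with at least 500 genes and at most 7% mitochondrial UMIs numbered 4018, 1225 and 4781, with median depths of 7750, 8123 and 7868 UMIs. Among kept cells, 2 barcodes were shared between the naive and 24 h libraries, 7 between naive and 3 d, and 2 between 24 h and 3 d. The 24 h library was the smallest. Classes were named from marker genes, and 6 had at least 50 cells in every library: microglia, astrocytes, oligodendrocytes, endothelial cells, pericytes or mural cells, and neurons. Microglia numbered 974, 270 and 1212 cells with 7770435, 2726840 and 10009288 summed UMIs. In them the microglial marker Cx3cr1 was at 4758, 4462 and 4176 CPM, and P2ry12 at 2779, 1663 and 2230 CPM. The class joined 2 clusters, of which the smaller was led by chemokine, cytokine and interferon-response genes (Cxcl10, Ccl12, Ccl2, Tnf and Ifi204 among them). The larger held most microglia in each library, in proportions that differed between libraries. It had 854 naive cells, 203 at 24 h and 906 at 3 d, and the smaller had 120, 67 and 306. Some genes that lead the smaller cluster themselves differed between libraries, so these counts are a description only. The neuron class carried Dcx and Gad1 but at most a few UMIs of Slc17a7, the marker of cortical excitatory neurons, and is called a neuron class here in that limited sense.

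A gene counted as past the limit when its CPM differed at least 2-fold between libraries with at least 30 UMIs over both sums. Intervals on log2 ratios are exact conditional binomial 95% intervals and those on CPM are Poisson 95% intervals. Both treat UMIs as independent and cover counting error only, not differences between mice or the uneven spread of UMIs over cells. The 24 h and 3 d comparisons share the naive library, so their ratios are not independent of each other.

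In microglia, the inhibitor Nfkbia rose at 24 h and no other member passed the limit at either time. At 24 h 1 of 9 members was past 2-fold, beside 5.03% of 11515 genes tested, and at 3 d 0 of 9 were, beside 2.67% of 12507 genes. The median log2 ratio of the members was 0.22 at 24 h, beside 0.05 over all genes tested. At 3 d it was 0.25, beside 0.06 over all genes. At 24 h 5 members had intervals above 0 (Nfkbia, Nfkbiz, Tnfaip3, Nfkb2 and Birc3), and none had an interval below 0. At 3 d these 5 and Nfkb1 had intervals above 0, and again none lay below. The share of all genes with intervals above 0 is not given here, so these counts are a description only. Scaled by the median ratio of genes in place of total UMIs, the intervals of Tnfaip3 and Birc3 at 24 h and of Tnfaip3 and Nfkb1 at 3 d held 0, and that of Nfkb1 at 24 h lay below 0, from −0.30 to −0.06.

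Nfkbia encodes IκBα, the inhibitor that NF-κB itself induces and that carries the dimers back out of the nucleus. Its level in microglia was 226 CPM in the naive library, 542 CPM at 24 h and 299.8 CPM at 3 d. It was highest at 24 h and nearer to the naive level at 3 d, and the 3 Poisson intervals did not overlap. The ratio to naive was 2.40-fold at 24 h (log2 1.26, interval 1.16 to 1.36) and 1.33-fold at 3 d (log2 0.41, interval 0.32 to 0.49). The 2% of cells with most Nfkbia UMIs held 23.7% of its microglial UMIs in the naive, 23.9% in the 24 h and 21.5% in the 3 d library. In the larger microglial cluster alone, an alternative chosen after the data were seen, the 24 h log2 ratio was 0.88 (interval 0.71 to 1.05), under the limit. The share of cells with the transcript also differed. After each cell was thinned to 2000 UMIs, 24.6% of naive microglia, 41.9% at 24 h and 32.2% at 3 d held at least 1 Nfkbia UMI. In the neuron class, where Nfkbia was low, the shares were 6.45%, 4.0% and 6.61%, at median depths before thinning of 7133, 8701 and 8305 UMIs beside 7786, 9339 and 7667 in microglia.

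Nfkbiz encodes IκBζ, a nuclear IκB protein that works with NF-κB at a subset of its targets. It measured 209 CPM in naive microglia, 331 CPM at 24 h and 279 CPM at 3 d. Both TIA libraries lay above the naive library with no overlap of the Poisson intervals, yet the ratios were under 2-fold. The log2 ratio was 0.67 at 24 h (interval 0.55 to 0.79) and 0.42 at 3 d (interval 0.33 to 0.51). In the larger microglial cluster alone they were 0.06 (interval −0.14 to 0.25) and 0.21 (interval 0.09 to 0.34). Tnfaip3 encodes A20, which takes activating ubiquitin chains off signalling proteins upstream of the kinase complex. Its level was 138 CPM in naive microglia, 161 CPM at 24 h and 154 CPM at 3 d. These 3 levels were close together, with log2 ratios of 0.22 at 24 h (interval 0.06 to 0.38) and 0.16 at 3 d (interval 0.05 to 0.27). In the larger microglial cluster alone the 24 h ratio had the opposite sign, at −0.27 (interval −0.53 to −0.03).

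Birc3 encodes the ubiquitin ligase cIAP2, an NF-κB target that acts downstream of tumor necrosis factor receptors. It measured 66.0 CPM in naive microglia, 78.1 CPM at 24 h and 78.4 CPM at 3 d. The TIA libraries were alike and a little above naive, with log2 ratios of 0.24 (interval 0.01 to 0.48) and 0.25 (interval 0.09 to 0.41). Bcl3, an atypical IκB protein that binds p50 and p52 dimers in the nucleus, was sparse, with 42, 16 and 68 microglial UMIs. At 5.41, 5.87 and 6.79 CPM its levels did not differ beyond counting error, and the interval at 24 h ran from −0.81 to 0.98.

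Among the subunits, Nfkb1 encodes p105, the precursor of p50. It measured 285 CPM in naive microglia, 264 CPM at 24 h and 304 CPM at 3 d. The 24 h library was the lowest and the 3 d library the highest, with log2 ratios of −0.11 (interval −0.23 to 0.02) and 0.10 (interval 0.02 to 0.17). Nfkb2 encodes p100, the precursor of p52 in the noncanonical branch of the pathway. Its microglial level was 13.9 CPM in the naive, 23.1 CPM in the 24 h and 19.3 CPM in the 3 d library. Both TIA libraries were above naive, by log2 0.73 at 24 h (interval 0.26 to 1.20) and 0.47 at 3 d (interval 0.13 to 0.83), and the 24 h interval held the 2-fold limit. In the larger microglial cluster alone Nfkb2 at 24 h was 0.06 (interval −0.76 to 0.81) and Nfkb1 at 3 d was 0.01 (interval −0.08 to 0.10). Rela, the transactivating p65 subunit of the canonical dimer, measured 64.3, 63.8 and 66.6 CPM. Relb, the partner of p52, measured 48.4, 48.0 and 52.7 CPM. For both genes a difference from naive was not detectable at this depth, and at 24 h their intervals reached from −0.27 to 0.24 and from −0.31 to 0.28.

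**Figure D1:**
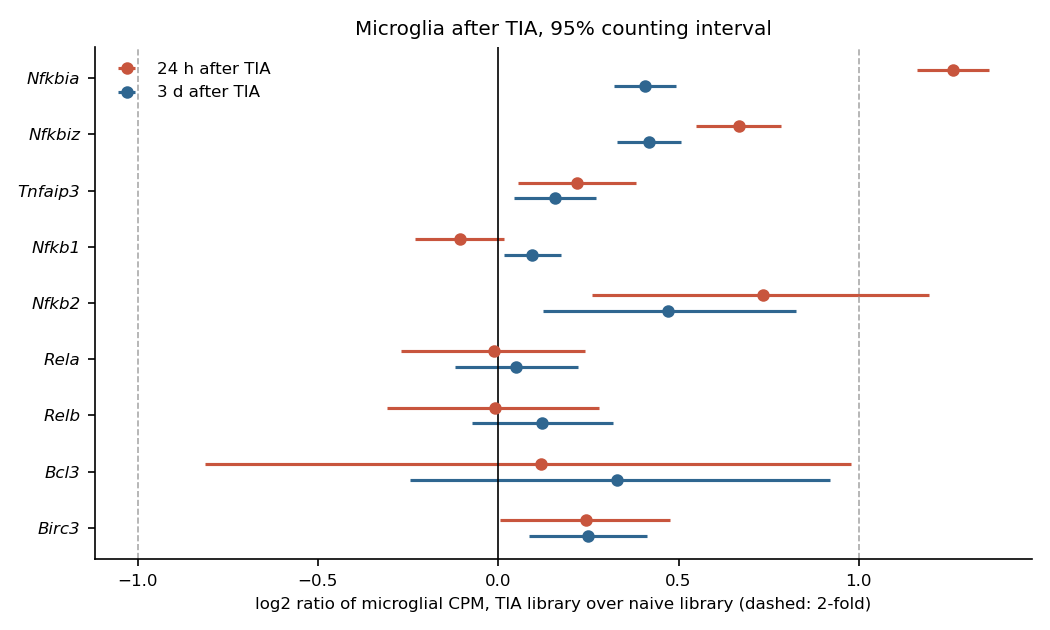
Log2 ratio of microglial CPM, TIA library over naive library, for the 9 members at 24 h and 3 d, with exact conditional binomial 95% intervals and dashed lines at 2-fold. The point for Nfkbia at 24 h, at 1.26, is past the line and the other points lie between the lines.

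Markers of other cells in the microglial sums moved between libraries too. All 5 erythrocyte markers were found, led by Hbb-bs, and summed to 1281 CPM in naive microglia, 20.2 CPM at 24 h and 106 CPM at 3 d. The 11 neuronal markers, led by Stmn2, summed to 40.8, 12.1 and 14.9 CPM, with Slc17a7 at 0 in the naive and 24 h microglia. The 8 oligodendrocyte markers summed to 196 CPM in naive microglia, 85.4 CPM at 24 h and 139 CPM at 3 d. Other sets summed higher in a TIA library. The 9 astrocyte markers, led by Slc1a3, summed to 379, 436 and 508 CPM. The 9 endothelial ones, led by Pecam1, summed to 42.7, 33.4 and 70.8 CPM. The 8 of border-associated macrophages summed to 185, 253 and 208 CPM, of which Stab1 alone made up 164, 236 and 191 CPM. The rest of that list was together lower in both TIA libraries. Its Cd163, F13a1, Ms4a7 and Cbr2 had no UMI at 24 h. The part of such RNA in the members' ratios was not tested.

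Across classes, microglia had the highest level of Nfkbiz, Tnfaip3, Nfkb1, Relb and Birc3 in every library, although at 24 h the microglial and endothelial intervals of Birc3 overlapped. For Nfkbiz the next class was endothelial cells, at 54.5, 57.7 and 73.8 CPM, and the microglial level was 3.83, 5.74 and 3.78 times as high. For Tnfaip3 the gap was wider: endothelial cells measured 9.33, 12.5 and 17.5 CPM, and microglia were 14.8, 12.9 and 8.78 times as high. Below them, neighbouring classes in the order of Tnfaip3 had overlapping intervals in each library. Nfkb1 was at 126, 133 and 144 CPM in endothelial cells, and microglia were 2.27, 1.99 and 2.11 times as high.

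Nfkbia was ordered differently, with endothelial cells highest in every library at 595, 959 and 711 CPM and microglia next. In the naive library pericytes or mural cells followed at 129.9 CPM, then astrocytes at 38.1 CPM and the neuron class at 36.2 CPM, whose intervals overlapped, and oligodendrocytes at 24.6 CPM. At 24 h oligodendrocytes came next after microglia, at 275 CPM, and no neighbouring intervals overlapped. At 3 d pericytes or mural cells, at 120.1 CPM, and oligodendrocytes, at 112 CPM, overlapped. Bcl3 was also highest in endothelial cells, at 10.8, 8.58 and 20.8 CPM, and only at 3 d did its interval not overlap that of microglia. In naive astrocytes Bcl3 had no UMI; its Poisson interval reached 0.415 CPM. Rela differed little between some classes: endothelial cells (73.9, 84.2 and 60.2 CPM), microglia and pericytes or mural cells (58.0, 63.1 and 60.4 CPM) had overlapping neighbours in every library. The ratio of the highest to the lowest class for Rela was 5.30 in the naive, 9.57 in the 24 h and 4.01 in the 3 d library, where for Nfkbiz it was 49.1, 48.3 and 42.8. That of Rela was the smallest among the members in the naive and 3 d libraries, and at 24 h that of Nfkb1 was smaller, at 9.08. Nfkb2 was highest in microglia at 24 h and 3 d, although at 24 h the microglial and endothelial intervals overlapped. In the naive library it was highest in pericytes or mural cells, whose 15.2 CPM rested on 11 UMIs and overlapped the microglial level.

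**Figure D2:**
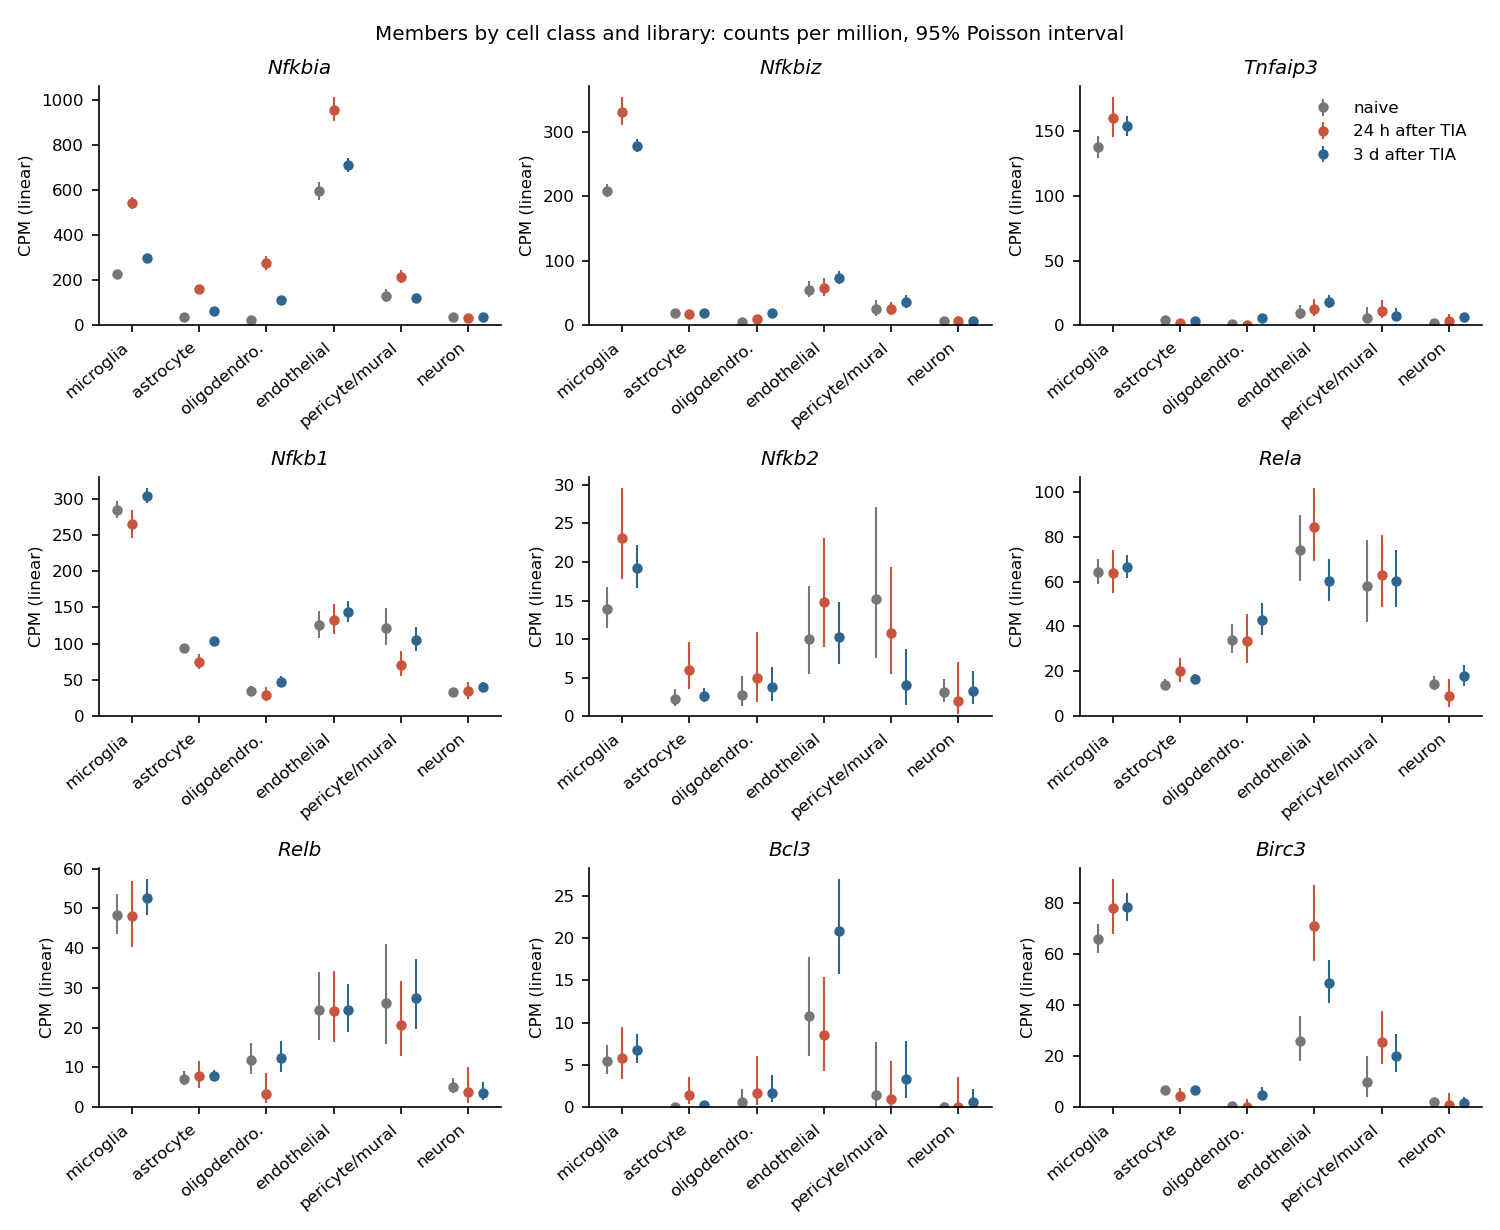
CPM of each member by cell class in the naive, 24 h and 3 d libraries, on linear axes that differ between panels, with Poisson 95% intervals. Nfkbiz, Tnfaip3 and Nfkb1 stand highest in microglia and Nfkbia in endothelial cells, at 959 CPM at 24 h.

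Of the 54 pairs of a member and a class, 39 had enough UMIs at 24 h, and 8 were past the limit, 6 higher and 2 lower, beside 7.79% of 61403 pairs of any gene and a class. At 3 d 4 of 43 were past it, all higher, beside 4.02% of 68053. With a minimum of 100 UMIs in place of 30 the counts were 4 at 24 h and 1 at 3 d, so the other pairs rest on small sums.

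In oligodendrocytes, the myelinating cells, Nfkbia was 24.6 CPM in the naive library, 275 CPM at 24 h and 112 CPM at 3 d. Both TIA libraries were far above naive, by log2 3.49 at 24 h (interval 3.13 to 3.85, an 11.2-fold ratio from 81 and 331 UMIs) and 2.19 at 3 d (interval 1.84 to 2.55). The oligodendrocytes numbered 232, 72 and 250. Thinned to 2000 UMIs, 6.49% of them held Nfkbia in the naive library, 46.5% at 24 h and 21.2% at 3 d. The oligodendrocyte level of Nfkbia was 10.9%, 50.8% and 37.4% of the microglial level. For Csf1r, a microglial receptor, the oligodendrocyte level was 1.48%, 1.19% and 3.08% of the microglial one. The part of microglial RNA in the Nfkbia values was not tested. Of the immediate early and dissociation genes, which respond to handling of the tissue, 6 of 14 tested in oligodendrocytes were past the limit higher at 24 h and 9 of 16 at 3 d, with 0 and 1 lower and medians of 0.83 and 1.06. Their part in the Nfkbia values was not tested. Over all genes tested in oligodendrocytes, 3.67% at 24 h and 4.62% at 3 d were past the limit higher. At 24 h 2 of the 4 members tested in this class were past the limit, beside 10.5% of 9297 genes. The other was Relb, which was lower on 39 and 4 UMIs (log2 −1.83, interval −3.78 to −0.36), and with the looser cell filter, on 44 and 8 UMIs, the ratio was −1.13 (interval −2.43 to −0.03).

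At 3 d 2 of 5 members tested in oligodendrocytes were past the limit, beside 5.81% of 10473 genes, namely Nfkbia and Nfkbiz. Nfkbiz measured 4.25 CPM in naive oligodendrocytes, 9.16 CPM at 24 h and 18.4 CPM at 3 d. The 3 d library was highest, with a log2 ratio of 2.11 (interval 1.26 to 3.06) from 14 and 64 UMIs, but 67.2% of these 64 UMIs lay in 5 cells. Without cells that Scrublet called doublets (122 naive, 6 at 24 h and 140 at 3 d) the counts were 7 and 17 UMIs and the log2 ratio was 1.29 (interval −0.05 to 2.81). Csf1r in oligodendrocytes was 34.6, 25.8 and 67.8 CPM, also highest at 3 d. Chemokines and cytokines were higher in this class at 3 d by more: 6 of 7 tested were past the limit, with a median log2 ratio of 3.29, and Ccl12 went from 1 to 145 and Ccl4 from 27 to 148 UMIs. The part of microglial RNA in the Nfkbiz values was not tested. Nfkbia without doublets stayed at 3.65 at 24 h and 2.13 at 3 d. Nfkb1 and Rela had ratios of −0.22 and −0.03 at 24 h and 0.48 and 0.33 at 3 d, and Relb 0.06 at 3 d, with the interval of Nfkb1 at 3 d above 0 (0.12 to 0.84). Tnfaip3, Nfkb2, Bcl3 and Birc3 were under the minimum at both times and Nfkbiz at 24 h.

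In astrocytes Nfkbia measured 38.1 CPM in the naive library, 161 CPM at 24 h and 61.9 CPM at 3 d. The order of the libraries was that seen in microglia, with log2 ratios of 2.08 at 24 h (interval 1.87 to 2.29) and 0.70 at 3 d (interval 0.52 to 0.89). At 24 h 3 of 8 members tested in astrocytes were past the limit, beside 9.30% of 12667 genes, and at 3 d 0 of 8 were, beside 2.68% of 13978. The others at 24 h rested on few UMIs. Nfkb2 was higher, with 20 UMIs in the naive and 17 in the 24 h library (log2 1.41, interval 0.39 to 2.42). Tnfaip3 was lower, with 37 and 4 UMIs (log2 −1.57, interval −3.51 to −0.09), but without doublets it had 13 and 4 UMIs and a log2 ratio of −0.14 (interval −2.21 to 1.56), and with the looser cell filter it was −0.41. Nfkb1 and Rela had intervals off 0 at 24 h, at −0.32 (−0.54 to −0.10) and 0.52 (0.05 to 0.99), and Nfkb1 also at 3 d, at 0.15 (0.03 to 0.28). The intervals of Nfkbiz, Relb and Birc3 held 0 at both times and those of Tnfaip3 and Nfkb2 at 3 d, and Bcl3 was under the minimum. Csf1r in astrocytes was 62.4, 17.9 and 46.2 CPM, the median log2 ratio of 5 chemokines and cytokines tested in this class at 24 h was −1.86, and the part of microglial RNA in the Tnfaip3 values was not tested. Immediate early and dissociation genes in astrocytes had 7 of 16 past the limit lower and 1 higher at 24 h, and 3 lower at 3 d. Over all genes tested in astrocytes, 6.35% at 24 h and 1.00% at 3 d were past the limit lower. At 24 h 2.95% were past it higher. The astrocyte cluster led by Cxcl14 and Mt3 held most naive astrocytes; at 24 h and 3 d no cluster held most, and the largest was led by Gm26512 and Gm35552.

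In endothelial cells the change past the limit was in Birc3. It measured 25.8 CPM in the naive library, 71.0 CPM at 24 h and 48.6 CPM at 3 d. Both TIA libraries were above naive, and the 24 h ratio was past the limit at log2 1.46 (interval 0.89 to 2.06, from 36 and 91 UMIs), while the 3 d ratio was 0.91 (interval 0.37 to 1.49). This was 1 of 7 members tested at 24 h, beside 6.05% of 8723 genes, and at 3 d 0 of 9 were past the limit, beside 4.49% of 9999. Endothelial Nfkbia, high in naive cells already, had log2 ratios of 0.69 at 24 h (interval 0.56 to 0.82) and 0.26 at 3 d (interval 0.14 to 0.38). Bcl3 and Tnfaip3 had ratios of 0.95 and 0.91 at 3 d, on 15 and 57 and on 13 and 48 UMIs, and were under the minimum at 24 h. Nfkbiz had a 3 d ratio of 0.44 (interval 0.05 to 0.84); its 24 h interval and those of Nfkb1, Nfkb2, Rela and Relb at both times held 0. Csf1r in endothelial cells was 68.9, 10.1 and 115 CPM, the median log2 ratio of 6 chemokines and cytokines tested there at 3 d was 0.90, and the part of microglial RNA in these 3 d values was not tested.

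Pericytes or mural cells also had more Birc3, at 9.67 CPM in the naive library, 25.6 CPM at 24 h and 20.1 CPM at 3 d. Both TIA libraries were above naive, on 7, 26 and 30 UMIs. The log2 ratios were 1.41 at 24 h (interval 0.16 to 2.85) and 1.06 at 3 d (interval −0.16 to 2.49), so the latter was past the limit with an interval that held 0, and with the looser cell filter it was 0.78. Csf1r in this class was 19.3, 7.88 and 107 CPM, highest at 3 d, and the part of microglial RNA in the Birc3 values was not tested. At 24 h 1 of 6 members tested was past the limit, beside 5.42% of 7713 genes, and at 3 d 1 of 6, beside 7.54% of 8882 genes. Nfkb1 measured 122, 70.9 and 105 CPM, with a 24 h log2 ratio of −0.78 (interval −1.25 to −0.31). Nfkbia measured 129.9, 216 and 120.1 CPM, highest at 24 h, where the log2 ratio was 0.73 (interval 0.38 to 1.10). At 3 d the intervals of Nfkbia and Nfkb1 held 0, as did those of Nfkbiz, Rela and Relb at both times, and Tnfaip3, Nfkb2 and Bcl3 were under the minimum.

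In the neuron class Nfkbia measured 36.2, 30.3 and 38.2 CPM, with intervals that held 0 at both times (−0.85 to 0.29 and −0.25 to 0.40). At 24 h 0 of 5 members tested were past the limit, beside 9.61% of 11488 genes. At 3 d 1 of 6 was, beside 2.45% of 12214 genes: Tnfaip3, with 11 and 21 UMIs (log2 1.72, interval 0.61 to 2.92). Of those 21 UMIs 85.7% lay in 5 cells, and without doublets the ratio was 0.09 (interval −1.87 to 1.88). The intervals of Nfkbiz, Nfkb1, Rela and Relb held 0 at both times. Nfkb2, Bcl3 and Birc3 were under the minimum at both times and Tnfaip3 at 24 h.

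To relate the members to chemokine-expressing microglia, each microglial cell was thinned to 2000 UMIs, and cells with at least 5 UMIs summed over Ccl2, Ccl3, Ccl4, Ccl12, Tnf and Il1b were called chemokine-high. None of these 6 genes is a member. Shallower cells, 12, 3 and 8 of them, were left out. Chemokine-high cells made up 187 of 962 naive microglia (19.4%, Clopper-Pearson 95% interval 17.0% to 22.1%), 88 of the 267 microglia at 24 h (33.0%, interval 27.4% to 39.0%) and 205 of the 1204 at 3 d (17.0%, interval 14.9% to 19.3%). The share was highest at 24 h, and the naive and 3 d intervals overlapped. These intervals treat cells as independent and do not cover differences between mice or libraries. The class is a range of a continuous score: 125, 32 and 126 cells had 3 or 4 chemokine UMIs and 52, 24 and 59 had 5 or 6. High cells held 73.4%, 85.9% and 75.5% of the chemokine UMIs. Their median depth before thinning was 8154, 9582 and 8376 UMIs, beside 7743, 9327 and 7564 in other microglia, and doublets among them numbered 1, 0 and 2. Cx3cr1 had means of 8.79, 8.36 and 7.76 UMIs in high cells and 9.96, 9.74 and 8.64 in the others. Medians of the summed markers of every other class compared were 0 or 1.

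Of the 6 members with at least 30 thinned UMIs in every library, Nfkbiz differed most between these cells. Its mean was 0.786 UMIs per high cell and 0.308 per other cell in the naive library, 1.0 and 0.374 at 24 h, and 1.034 and 0.415 at 3 d. High cells had more in each library, with log2 ratios of 1.35 (interval 1.04 to 1.65), 1.42 (0.94 to 1.90) and 1.32 (1.07 to 1.56). Of those 6 members, Nfkbiz was the 1 past 2-fold higher in all 3 libraries, beside 0.218% of 3663 genes, a set without the 6 genes that define the class. Ordered by the smallest of its ratios in the 3 libraries, Nfkbiz ranked 1 of these 3663 genes. The 8 of these past the limit in every library were Nfkbiz, Egr1, Ier3, Gem, Adamts1, Ccrl2, Plekho2 and Ier2; Gem, Adamts1 and Plekho2 stand in no list used here and are named after their values were seen. With coarser clustering (resolution 0.2) 0 members were past the limit in every library, and with doublets left out or without thinning 2 were. Without thinning, Nfkbia had larger ratios than Nfkbiz at 24 h (1.485 beside 1.422) and 3 d (1.259 beside 1.128).

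Nfkbia came close. Its mean was 0.77 UMIs per high cell and 0.346 per other cell in the naive library, 1.273 and 0.682 at 24 h, and 1.044 and 0.472 at 3 d. High cells again had more in each library, by log2 1.16 (interval 0.85 to 1.45), 0.90 (0.52 to 1.28) and 1.14 (0.90 to 1.38), and by the smallest ratio Nfkbia ranked 13. Tnfaip3, with ratios of 0.53 (interval 0.09 to 0.95), 1.10 (0.41 to 1.79) and 1.02 (0.68 to 1.35), ranked 38. Birc3 ranked 101, with ratios of 0.68, 0.56 and 0.32 whose intervals held 0 at 24 h and 3 d; without thinning they were 0.80, 0.42 and 0.68 with all 3 intervals above 0. Among the subunits, Rela had ratios of 0.05, 0.02 and 0.23, and Nfkb1 had ratios of 0.19, −0.41 and 0.27, all with intervals that held 0; without thinning that of Nfkb1 at 3 d lay above 0 (0.04 to 0.30). Relb, short of 30 UMIs at 24 h, had ratios of 0.93 (interval 0.23 to 1.60), 0.80 (−0.44 to 2.02) and 0.90 (0.28 to 1.48), and without thinning 0.77, 0.84 and 0.63 with all 3 intervals above 0. Nfkb2 and Bcl3 had too few UMIs in at least 1 library; Bcl3 had 0 UMIs in high and 8 in other cells in the naive library, 1 and 2 at 24 h, and 9 and 7 at 3 d.

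**Figure D3:**
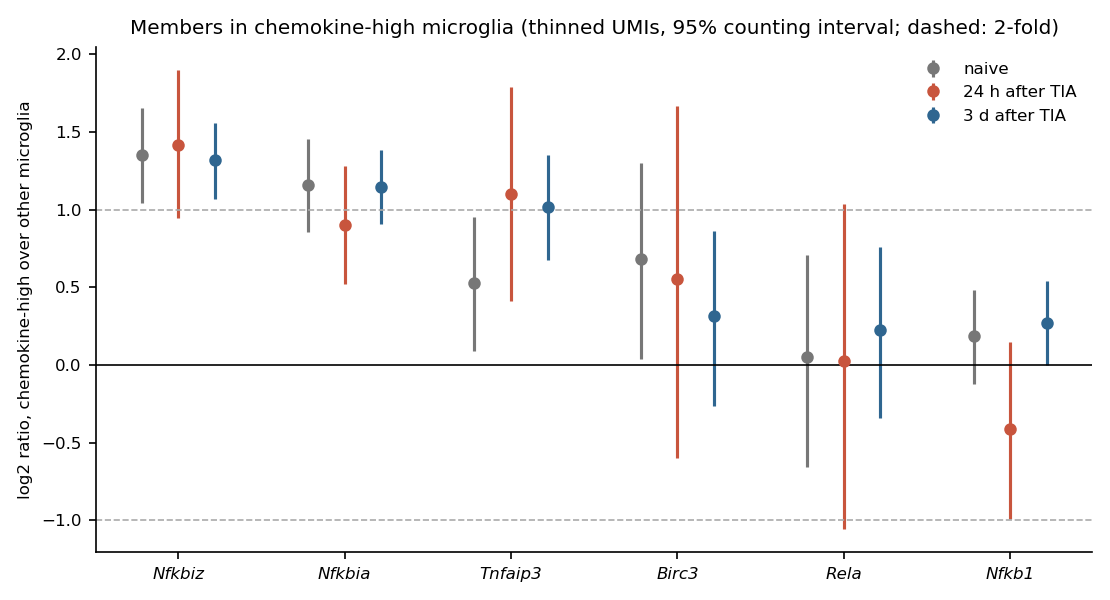
Log2 ratio of mean thinned UMIs per cell, chemokine-high over other microglia, in the naive, 24 h and 3 d libraries, for the 6 members with at least 30 UMIs in each, with exact conditional binomial 95% intervals and dashed lines at 2-fold. The 3 points of Nfkbiz, from 1.32 to 1.42, lie past the line, and those of Rela and Nfkb1 scatter about 0.

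The relation was graded for Nfkbiz and Nfkbia. In naive microglia with no chemokine UMI, with 1 to 4, with 5 to 19 and with 20 or more, the mean of Nfkbiz was 0.239, 0.378, 0.697 and 1.455 UMIs. At 24 h it was 0.344, 0.404, 0.797 and 1.737, and at 3 d 0.337, 0.5, 0.955 and 1.556. The means rose from bin to bin, but the Poisson intervals of the lowest pair of bins at 24 h overlapped (0.234 to 0.489 and 0.283 to 0.56), and the top bin held only 22, 19 and 27 cells. Nfkbia followed the same order, from 0.265 to 1.636 UMIs in the naive, 0.589 to 2.158 in the 24 h and 0.403 to 1.481 in the 3 d library, with overlap between the lower 3 bins at 24 h, neighbour by neighbour, and between the upper pair at 3 d. Rela, at 0.121, 0.127, 0.109 and 0.273 UMIs in the naive library, had no such steps over the lower bins. The means of Tnfaip3 rose from bin to bin only at 24 h, at 0.167, 0.247, 0.362 and 0.737 UMIs. They were 0.254, 0.212, 0.315 and 0.5 UMIs in the naive library and 0.204, 0.31, 0.539 and 0.37 UMIs at 3 d. Over single cells (962, 267 and 1204, sharing depth after thinning), Pearson's r with the chemokine sum was 0.24, 0.33 and 0.25 for Nfkbiz and 0.22, 0.27 and 0.25 for Nfkbia. For Tnfaip3 it was 0.04, 0.22 and 0.16, and for Rela 0.02, 0.04 and 0.01. Nfkbia and Nfkbiz had r of 0.23, 0.47 and 0.38 with each other.

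At 24 h Nfkbia was above naive in both kinds of microglia. Among microglia outside the chemokine-high class its mean was 0.346 UMIs in naive cells, 0.682 at 24 h and 0.472 at 3 d, and the 24 h log2 ratio was 0.98 (interval 0.66 to 1.29). Within the chemokine-high class the 24 h ratio was 0.73 (interval 0.36 to 1.09). At 3 d the ratios were 0.45 (interval 0.23 to 0.67) and 0.44 (interval 0.13 to 0.75). For Nfkbiz the 24 h ratios were 0.28 (interval −0.13 to 0.68) in other microglia and 0.35 (interval −0.05 to 0.74) in high cells, beside 0.53 (interval 0.26 to 0.81) in all thinned microglia. These intervals overlap. At 3 d they were 0.43 (interval 0.20 to 0.67) and 0.40 (interval 0.09 to 0.71). Of the other members, 4 pairs of a gene and a part with UMIs in both libraries had intervals off 0: Nfkb1 in high cells at 24 h, at −0.59 (−1.16 to −0.04), and at 3 d Tnfaip3 in high cells, at 0.62 (0.16 to 1.09), and Nfkb2 and Birc3 in other microglia, at 1.01 (0.12 to 1.98) and 0.41 (0.002 to 0.826). The remaining such pairs had intervals that held 0. The share of all genes with intervals off 0 is not given here, so these 4 are a description only. Bcl3 in high cells had 0 UMIs in the naive and 9 in the 3 d library. In other microglia at full depth, Tnfaip3 was at 124 CPM in the naive library and 122 CPM at 24 h. With a somewhat different set of high cells left out, its 24 h log2 ratio was 0.01 (interval −0.21 to 0.23), beside 0.22 in all microglia.

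Other genes of the pathway were read from lists in the same microglial sums, beside medians over all genes of 0.05 at 24 h and 0.06 at 3 d. The other subunits and IκB proteins (Rel, Nfkbib, Nfkbie and Nfkbid) had 0 of 4 past the limit at both times, with medians of −0.10 and 0.08. The kinase complex had 0 of 5 tested past it, with medians of −0.03 and 0.17. Receptors and adaptors had 0 of 28 tested past it, with medians of 0.21 and 0.12. Over all genes tested 5.03% were past the limit at 24 h and 2.67% at 3 d, so counts of 0 in lists of this size are near the background.

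The lists of targets and brakes of the pathway held genes past the limit, beside the same 5.03% and 2.67% of all genes. Among 19 other feedback regulators tested, 2 rose at 24 h: Ier3, from 102 CPM in the naive to 208 CPM in the 24 h library (log2 1.02), and Gadd45b, from 6.69 to 15.8 CPM (1.24). At 3 d 2 rose: Gadd45b at 17.0 CPM (1.34) and Nlrc5, from 5.02 to 15.0 CPM (1.58). The medians of this list were 0.19 and 0.09. Of 14 chemokines and cytokines tested at 24 h, 4 rose: Cxcl2 (4.32, from 5 and 35 UMIs), Tnf (2.09), Ccl3 (1.12) and Ccl2 (1.09), with a median of 0.64. At 3 d 3 of 13 rose, Ccl12 (1.18), Il1b (1.11) and Cxcl10 (1.07), and the median was 0.05. Of the adhesion targets 1 of 2 tested rose at 24 h, Vcam1 (1.03, from 46 and 33 UMIs), and 0 of 2 at 3 d. Of the immediate early and dissociation genes 0 of 16 were past the limit in microglia at either time, with medians of 0.17 and 0.24. In none of these lists was a gene past the limit lower in microglia.

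Against other microglia, chemokine-high cells had 1 of 9 other feedback regulators (Ier3), 1 of 4 chemokines and cytokines that did not define the class (Ccrl2) and 2 of 15 immediate early genes (Egr1 and Ier2) past 2-fold higher in every library. The other lists had 0. Over all 3663 genes tested, 0.218% were past 2-fold higher in every library, so counts of 0 are near the background.

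Nfkbia also belongs to a list of 15 glucocorticoid-responsive genes. In microglia 6 of 14 tested rose at 24 h: Ddit4 (4.08), Fkbp5 (2.78), Zbtb16 (2.48), Tsc22d3 (1.84), Cdkn1a (1.39) and Nfkbia itself, with a list median of 0.74. At 3 d 4 of 14 rose, Ddit4 (3.17), Fkbp5 (2.06), Zbtb16 (1.71) and Tsc22d3 (1.17), with a median of 0.55. Fkbp5, a co-chaperone of the glucocorticoid receptor, measured 94.6 CPM in naive microglia, 649 CPM at 24 h and 395 CPM at 3 d. As with Nfkbia, the 24 h library was highest and the 3 d library between. In oligodendrocytes 14 of 15 genes of this list rose at 24 h and 12 of 15 at 3 d, with medians of 2.05 and 1.56. Nfkbia itself was among them at both times. Tsc22d3 was not, at −0.02 at 24 h (interval −0.35 to 0.31) and 0.57 at 3 d. Astrocytes had 8 and 4 of 15 higher, endothelial cells 6 and 4 of 14, and pericytes or mural cells 6 and 5 of 13, with 2 lower at 24 h. Nfkbia was among the 8 in astrocytes. In the neuron class 0 of 13 and 0 of 14 were higher, and 2 and 1 were lower. Over all genes tested, 2.39% at 24 h and 1.71% at 3 d were past the limit higher in microglia. These shares were 3.67% and 4.62% in oligodendrocytes, 2.95% and 1.68% in astrocytes, and 2.48% and 3.53% in endothelial cells. They were 2.59% and 6.54% in pericytes or mural cells and 0.992% and 0.696% in the neuron class. Shares lower were 2.83% at 24 h in pericytes or mural cells, and 8.62% and 1.75% in the neuron class. Between chemokine-high and other microglia 0 of 9 tested genes of this list were past the limit higher in every library. This stands beside 0.218% of 3663 genes, so the count of 0 is near the background. The part of glucocorticoid signalling in the Nfkbia values was not tested.

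The genes whose profile over the 18 sums of 6 classes and 3 libraries was most like each inhibitor were found among 12899 genes by Pearson's r of log2(CPM + 1). The points share libraries, so r is a description. For Nfkbia they were Tmem160 (0.933), Tpra1 (0.905), Tmem184b (0.904), Klf4 (0.90) and Sertad1 (0.898). For Nfkbiz they were Ubtd1 (0.974), Herpud1, Hfe and Tpst2 (0.965 each) and Cflar (0.964). For Tnfaip3 they were Cysltr1 (0.975), Nfkbid (0.967), Lyn and Usp12 (0.963 each) and Pan3 (0.958). Among the members, r was 0.737 between Nfkbia and Nfkbiz, 0.923 between Nfkbiz and Tnfaip3 and 0.524 between Nfkbia and Tnfaip3.

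The members lie on 7 chromosomes in the GENCODE annotation of GRCm38. Nfkbia (ENSMUSG00000021025) spans chr12:55489410-55492647 on the minus strand, Nfkbiz (ENSMUSG00000035356) chr16:55811375-55838899 on the minus strand, and Tnfaip3 (ENSMUSG00000019850) chr10:19000910-19015657 on the minus strand. Nfkb2 and Rela share chromosome 19, and Relb and Bcl3 share chromosome 7. RefSeq promoter windows of GRCm38.p6, from 250 bases before to 50 after a transcript start, were at hand for 6 members in 9 windows. The set of windows used held none for Nfkb1, Nfkbiz and Relb. Both strands were searched for GGGNNTTTCC, a strict form of the κB element, and for GGGNNNTTCC, which contains it. The strict form was in 535 of 32851 windows (1.63%) and in 5 of the 9 member windows, those of 3 of the 6 members. A pair of Nfkb2 windows overlap and hold the same site, so these 5 windows hold 4 distinct sites. The wider form was in 1825 windows (5.56%) and in 6 of the 9, that pair included. Because such elements are what NF-κB dimers bind, the match to the strict form that lies nearest before a start is shown for each of the 3 members, 5′ to 3′ on the gene's own strand, with the match in capitals; in Nfkbia and Tnfaip3 it reads on the opposite strand. The printed bases lie at chr12:55492657-55492686 (minus strand), chr10:19015403-19015432 (minus strand) and chr19:46304716-46304745 (plus strand), and the matches begin 29, 12 and 11 bases before the start.
Nfkbia: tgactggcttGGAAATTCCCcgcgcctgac
Tnfaip3: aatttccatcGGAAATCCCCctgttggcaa
Nfkb2: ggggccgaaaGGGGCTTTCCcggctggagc
A match describes letters in the window only.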

How the data were processed

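Live cells of 3 libraries were profiled with the 10x Genomics single-cell 3′ v3.1 assay. The deposited tables hold raw UMI counts per gene and cell that the authors made by alignment to mm10 with Cell Ranger (version 3.1.0 per the labels, 7.1.0 per the file headers). Cells with fewer than 500 genes or over 7% mitochondrial UMIs were left out. Seurat 5.3.0 in R 4.3.3 normalised the cells, regressed out depth and mitochondrial share, took 2000 variable genes and 20 principal components, and clustered at resolution 0.5. Clusters were named from marker lists for 19 cell types. Raw UMIs were summed per class and library and scaled to CPM. Python 3.11.15 with numpy 2.4.6 and scipy 1.17.1 gave the intervals (95%), and Scrublet in scanpy 1.11.5 gave doublets. Each TIA library was compared with naive, with no test since each condition has 1 library. The 9 members are named in every comparison of a class between libraries. From the pathway lists, genes past 2-fold with at least 30 UMIs in microglia are named, up to 5 in each direction, and for Nfkbia, Nfkbiz and Tnfaip3 the 5 genes most like them among those with at least 300 UMIs. Nfkbia is named in its list besides these 5, as a member. Members and lists were chosen with earlier results of these data known. Interval and ratio code was tested on simulated data. Alternatives changed the cell filter (a looser filter leaves out only cells that fail both limits), doublets, resolution, regression, scaling, minimum UMIs, fold limit, top cells, microglial clusters, chemokine-high limit, genes and thinning.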

Additional observations from a re-analysis of the deposited data

How the results depend on the processing

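Of 198 values of single members in microglia under 11 alternatives at 2 times, 184 moved by less than their counting interval, 12 moved by more and 2, of those whose interval had left out 0, changed sign. Values whose interval held 0 crossed it in some alternatives for Rela, Relb and Bcl3. Both sign changes were Tnfaip3 at 24 h, at −0.02 without the 5 cells with most of its UMIs and at −0.27 in the larger microglial cluster alone. Leaving out 5 cells takes a larger share of the smaller 24 h library. When the same 2% of cells was left out in each library, Nfkbia at 24 h was 1.26, Nfkbiz 0.69 and Tnfaip3 0.21, and Bcl3 alone moved, to 1.02 on few UMIs. The others that moved were lower. Without the 5 cells, Nfkbia and Nfkbiz at 24 h were 0.99 and 0.48. With chemokine-high cells left out, Nfkbia, Nfkbiz and Tnfaip3 at 24 h were 1.09, 0.51 and 0.01. The cells left out there differed somewhat from the class split above. By that split, other microglia at full depth had Nfkbia at 178 CPM in the naive library and 347 CPM at 24 h, under 2-fold. Nfkbiz was at 158 and 217 CPM, and Tnfaip3 at 124 and 122 CPM. In the larger cluster, Nfkbia, Nfkbiz, Nfkb2 and Relb at 24 h were 0.88, 0.06, 0.06 and −0.35. Nfkbiz and Nfkb1 at 3 d were 0.21 and 0.01 there. The counts past the limit were within 1.5 times the reported count in 43 of 60 cases. Members past 2-fold in microglia at 24 h, reported as 1, were 3 at a 1.5-fold limit and 0 without the 5 top cells or in the larger cluster. Pairs at 24 h, reported as 8, were 4 with a minimum of 100 UMIs, 15 at 1.5-fold and 5 without the 5 top cells or the top 2%. Pairs at 3 d, reported as 4, were 2 when doublets were left out, 8 at 1.5-fold, and 1 or 9 when the minimum was 100 UMIs or 1 UMI. Members past 2-fold in chemokine-high cells of every library, reported as 1, were 0 at resolution 0.2 and 2 with the looser cell filter, without doublets, at 1.5-fold, with at least 10 chemokine UMIs and without thinning. The fold and minimum settings change the rule itself; for the others the cause was not tested. The same 2%, the larger cluster and the unnamed clusters added to microglia were alternatives chosen after seeing the data; the last left the counts at 1 and 0.

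Depth limits the sparse members: Bcl3 had 16 microglial UMIs at 24 h, and its interval there reached from −0.81 to 0.98. With 1 pooled library per condition, differences between mice could not be measured, and intervals cover counting error only. The controls are naive by the labels, although a figure legend of the study has Sham; against naive mice, occlusion, anesthesia and surgery cannot be told apart.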

Other observations

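A cluster that carried both microglial markers and leading genes of border-associated macrophages (Pf4, F13a1, Cd74) was not named and entered the microglia only in the alternative that adds unnamed clusters. It held 103 naive cells, 34 at 24 h and 167 at 3 d. Its relative depth per cell was 2.97, the highest of all clusters. In these cells Nfkbia measured 167 CPM in the naive library (Poisson 95% interval 152 to 184), 246 CPM at 24 h (209.8 to 286) and 223 CPM at 3 d (211 to 235). Both TIA libraries were above naive, and their intervals overlapped each other. Nfkbiz measured 228 CPM (209 to 247), 266 CPM (229 to 308) and 254 CPM (242 to 267) with overlapping intervals. Tnfaip3 measured 117 CPM in the naive library (104 to 131), 85.3 CPM at 24 h (64.8 to 110.3) and 128 CPM at 3 d (119 to 137), lowest at 24 h with an interval that overlapped the naive one. Birc3 measured 54.8 CPM in the naive library (46.1 to 64.8), 88.3 CPM at 24 h (67.4 to 113.6) and 87.0 CPM at 3 d (79.8 to 94.6), and both TIA libraries were above naive with no overlap. Relb was lowest at 24 h, at 27.9 CPM (16.8 to 43.6) beside 52.9 CPM (44.3 to 62.6) and 53.7 CPM (48.1 to 59.7). Nfkb1 was highest at 3 d, at 333 CPM (319 to 348) beside 277 CPM (257 to 299) in the naive library and 285 CPM (247 to 328) at 24 h, whose interval overlapped both. Bcl3 measured 3.16, 10.3 and 7.60 CPM on 8, 7 and 48 UMIs, and Nfkb2 and Rela had overlapping intervals in the 3 libraries. The other unnamed cluster, of low depth, held 298, 25 and 148 cells. In it Nfkbia measured 61.0 CPM (43.8 to 82.7), 166 CPM (79.5 to 305) and 97.4 CPM (67.0 to 136.8), where the naive and 24 h intervals overlapped. Nfkbiz there measured 162 CPM (133 to 196), 149 CPM (68.2 to 283) and 260 CPM (208 to 320), with no overlap between naive and 3 d. The intervals of the other members in it overlapped.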
